A study of Mus musculus with 8 samples.

Results

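Transcripts of the mitochondrial respiratory chain, of its assembly factors and of mitochondrial protein import were compared between astrocyte cultures of Spp1 knockout and wild-type mice. Spp1 encodes osteopontin, a secreted matrix phosphoprotein. The genes were chosen by name, as every row of the authors' deposited table whose symbol begins with a prefix of these families (Nduf, Sdha to Sdhd, Uqcr, Uqcc, Cox4 to Cox8, Cox10 to Cox19, Coa, Atp5, Atpif, Timm, Tomm, Chchd, Micos, Minos, Cyc1, Cycs, Surf1 or mt-). The rule found 37 of the 3624 genes in that table. The knockout cultures were 4 samples of genotype Spp1-/- (strain B6.129S6(Cg)-Spp1tm1Blh/J), and the wild-type cultures were 4 samples from C57BL/6 mice. All 8 were primary astrocytes grown in serum-containing DMEM/F12 medium from retinas and optic nerves of mice at postnatal day 1 to 3. The labels do not say whether samples of a genotype came from separate litters or cultures, and p-values then cover no more than how these 8 samples vary, which may be technical variation.

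The respiratory chain of the inner mitochondrial membrane passes electrons from NADH (complex I) and succinate (complex II) through complex III and cytochrome c to oxygen at complex IV, and complex V uses the proton gradient so formed to make ATP. Complexes I, III, IV and V join subunits encoded in mitochondrial DNA to subunits encoded in the nucleus, made in the cytosol and imported through the TOM and TIM translocases. The core subunits carry the redox centres and proton channels, whereas the many small accessory subunits help to assemble and stabilise the complexes. Astrocytes are known for a high rate of glycolysis beside this oxidative metabolism.

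For every gene the authors' deposited table gives the normalized count averaged over the samples of both genotypes, the log2 fold change and its standard error, and an adjusted p-value, with no value for any single sample. Spp1 itself is at -5.90 in the authors' deposited table, and this sign alone was used to read fold changes as knockout over wild type, so it cannot also check the direction. The mean of each genotype given below is implied by the mean count and the fold change in the authors' deposited table, with the groups taken as equal in size, and has no SD. All listed genes have an adjusted p below 0.05 and a log2 fold change of 0.58 or more in either direction. Genes outside the table missed a limit or were never tested, and their absence is not read as no change. Y-linked genes such as Ddx3y had an implied mean of 1605 in the knockout and 0.164 in wild type in the authors' deposited table. Sex therefore cannot be told apart from genotype, and the strain background of the knockout line cannot either. Of 12 astrocyte markers, 4 were listed (33.3%), Gfap, Aqp4 and Aldoc higher and S100b lower. In either direction, 21.8% of the genes that the authors tested were listed, by an estimate described below.

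All 36 listed nuclear genes were lower in the knockout, and the only listed gene of mitochondrial DNA, mt-Nd4l, was higher. It is 1 of 13 protein genes of mitochondrial DNA (7.69%). As background, 9.84% of the roughly 16600 genes that the authors tested, a number estimated from how far adjustment raised the p-values, were listed as lower and 12% as higher. Among all genes listed by the authors, 45.1% were lower. Under the same name rule the GENCODE M21 annotation of GRCm38 holds 153 nuclear protein-coding genes, of which 35 were listed as lower (22.9%), against 7.26% of all annotated protein-coding genes. The remaining nuclear member, Ndufb1-ps, is annotated there as a non-coding transcript. All 21924 annotated protein-coding genes outnumber those tested, and how many of the 153 were tested is not known.

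Among the 36 listed nuclear genes the falls were of similar size, but smaller falls had been removed beforehand by the fold limit. This likeness, and the overlap of the intervals given below, can therefore come in part from that limit. Neither shows a uniform fall of these gene families. The 36 genes had a median log2 fold change of -0.82 in the authors' deposited table, which puts the knockout at 56.7% of wild type. For the other 1597 genes listed as lower the knockout stood at 49.9% of wild type. Of the 36 nuclear genes, 32 (88.9%) lay between -1 and the fold limit in the authors' deposited table, against 49.2% of the other lower genes. The difference in level was not seen among genes of like abundance. With mean counts inside the quartiles of the nuclear members (398 to 1185), 18 members stood at a median of 55.1% of wild type and 404 other lower genes at 55.4%, and 88.9% of these members and 66.8% of these other genes lay between -1 and the fold limit, worked out from the authors' deposited table. Every one of the 36 intervals at 95% contained the values from -0.92 to -0.69, so no order among these genes can be read from their fold changes. Summed over the 36 genes, implied means came to 23778 normalized counts in the knockout and 41213 in wild type, worked out from the authors' deposited table.

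**Figure D1:**
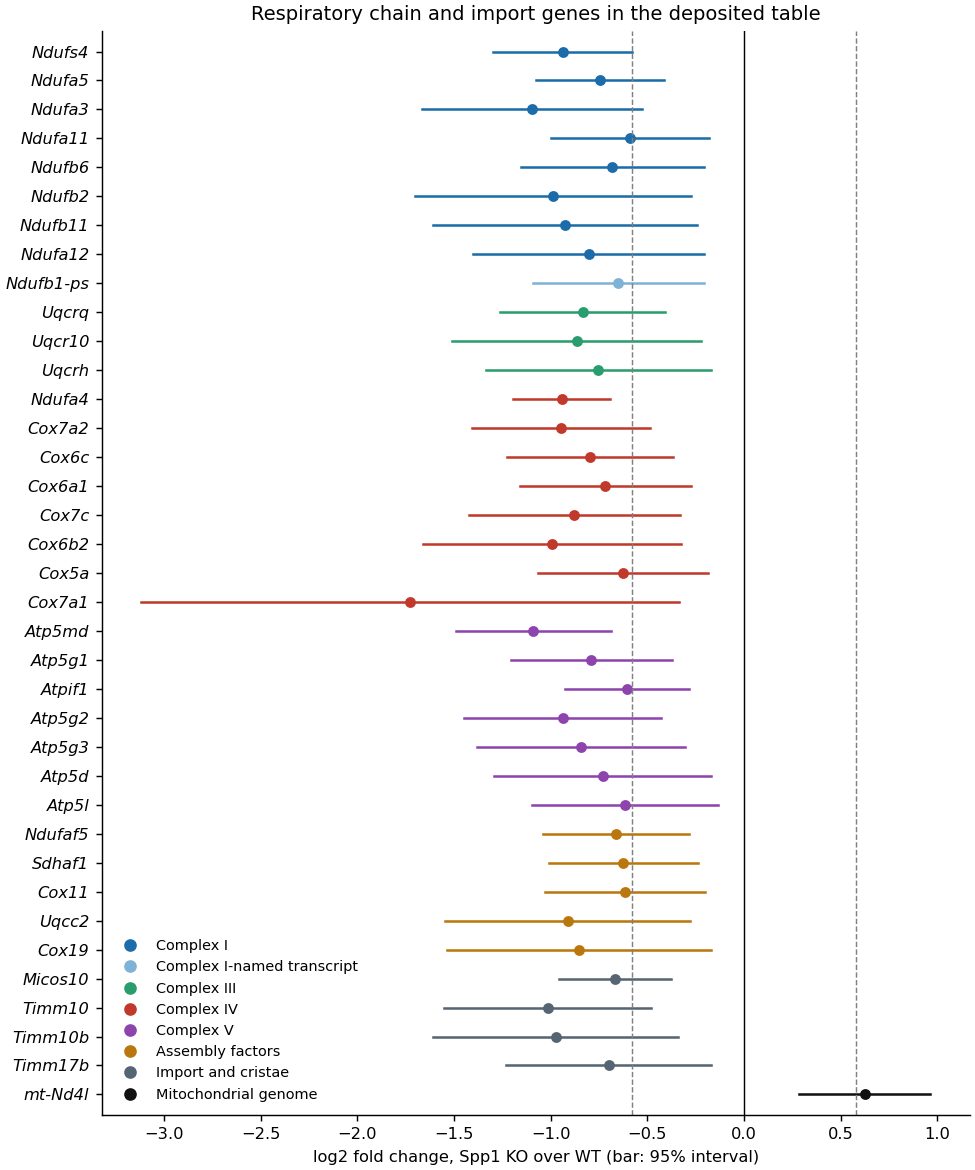
Log2 fold changes (horizontal axis, Spp1 KO over WT) of the 37 genes, coloured by group, with 95% intervals from the deposited standard errors; dashed lines mark the fold limit of the table at 0.58. All 36 nuclear genes lie left of 0 and mt-Nd4l lies right of it; Cox7a1 has the widest interval, from -3.12 to -0.34.

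The starts of 33 member genes were matched by symbol to RefSeq promoter sequences on GRCm38.p6, each running from 250 bases before to 50 bases after the start, and Cox6c, Uqcrq, mt-Nd4l and Ndufb1-ps were not matched. NRF1, the ETS-family factor GABPA and YY1 are known regulators of nuclear respiratory genes, and short cores of their motifs were searched on both strands, at any start of a gene with several. The ETS core CCGGAAG was present at 9 of the 33 genes (27.3%), at 11.1% of 1195 other genes listed as lower and at 9.93% of all 27025 genes. The NRF1 core GCGCATG was present at 7 members (21.2%), at 5.02% of the other lower genes and at 4.41% of all genes. The YY1 core ATGGCGG was present at 3 members (9.09%), at 4.69% of the other lower genes and at 4.69% of all genes. The TATA box core TATAAA was present at 4 members (12.1%), at 10.7% of the other lower genes and at 15.7% of all genes. Genes that hold both the ETS and the NRF1 core made up 3 of the 33 members and 0.829% of all genes. A match describes letters and shows neither binding nor a cause of the fold changes. The members were chosen by family name, and these factors are known to regulate such families. No share was worked out for unlisted genes of the same families, so these shares do not bear on which members fell. None of these cores occurred at 16 of the 33 members.

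Promoters of the 3 genes with both cores, 1 each of complexes I, IV and V, are shown with that of Atp5md, the complex V gene with the smallest adjusted p, so that the cores can be seen in place. Each reads 5′ to 3′ on the strand of the gene, which is the minus strand for all 4, and capitals mark the matched cores. Atp5l and Atp5md also hold the TATA core on the other strand, and in Cox6a1 the NRF1 cores of both strands overlap.
Ndufb6, chr4:40279372-40279671: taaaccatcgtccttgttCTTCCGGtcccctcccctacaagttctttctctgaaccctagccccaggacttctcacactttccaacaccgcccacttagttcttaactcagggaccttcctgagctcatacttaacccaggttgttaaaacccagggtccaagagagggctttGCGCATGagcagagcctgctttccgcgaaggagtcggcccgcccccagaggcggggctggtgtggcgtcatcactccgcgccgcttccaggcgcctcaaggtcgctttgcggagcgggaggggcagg
Cox6a1, chr5:115348909-115349208: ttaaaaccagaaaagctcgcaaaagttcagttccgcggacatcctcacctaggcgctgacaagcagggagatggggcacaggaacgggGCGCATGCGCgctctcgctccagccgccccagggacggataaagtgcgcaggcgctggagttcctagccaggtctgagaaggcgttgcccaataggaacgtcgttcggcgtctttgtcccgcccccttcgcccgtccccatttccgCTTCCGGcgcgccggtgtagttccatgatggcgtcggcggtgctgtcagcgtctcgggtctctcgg
Atp5l, chr9:44920693-44920992: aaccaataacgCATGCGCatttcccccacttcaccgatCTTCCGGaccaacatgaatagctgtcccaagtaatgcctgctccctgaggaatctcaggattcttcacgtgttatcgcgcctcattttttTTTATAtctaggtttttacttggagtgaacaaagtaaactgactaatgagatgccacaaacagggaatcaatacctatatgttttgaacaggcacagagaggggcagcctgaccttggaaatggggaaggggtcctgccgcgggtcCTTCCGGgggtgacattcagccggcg
Atp5md, chr19:47090598-47090897: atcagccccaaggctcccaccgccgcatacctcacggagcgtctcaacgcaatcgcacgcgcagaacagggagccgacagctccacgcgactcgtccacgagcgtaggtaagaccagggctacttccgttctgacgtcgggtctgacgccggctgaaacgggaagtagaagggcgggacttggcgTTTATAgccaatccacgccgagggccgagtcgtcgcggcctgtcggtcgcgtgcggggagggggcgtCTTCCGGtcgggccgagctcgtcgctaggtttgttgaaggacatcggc

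Complex I, the NADH dehydrogenase that is the largest complex of the chain, had 8 of 36 nuclear subunit genes in the authors' deposited table. All of these were lower, and their median log2 fold change was -0.86. They made up 22.2% of the complex I list, while 9.84% of genes estimated as tested were listed as lower. Ndufs4, an accessory subunit of the matrix arm whose loss in mice gives a model of Leigh syndrome, had an implied mean of 540 in the knockout and 1035 in wild type, a log2 fold change of -0.94 with a deposited standard error of 0.18 and an adjusted p of 3.39e-06 in the authors' deposited table. Its locus is on the minus strand of chromosome 13 (114287795 to 114388258). Ndufa5, another matrix-arm subunit, stood at 343 in the knockout and 575 in wild type, a log2 fold change of -0.74 (0.17, adjusted p = 9.73e-05) in the authors' deposited table. Ndufa3, a small accessory subunit, stood at 301 in the knockout and 645 in wild type, a log2 fold change of -1.10 (0.29, adjusted p = 0.0010) in the authors' deposited table. Ndufa11, a membrane-arm subunit, lay closest to the fold limit at -0.59 (0.21), with 751 in the knockout and 1129 in wild type in the authors' deposited table. The other listed subunits were Ndufb2 (-0.99), the X-linked Ndufb11 (-0.92), Ndufa12 (-0.80) and Ndufb6 (-0.68), with adjusted p-values from 0.020 to 0.031 in the authors' deposited table. All 8 listed subunits are accessory. The transcript Ndufb1-ps, named after subunit B1, had a log2 fold change of -0.65 (0.23) in the authors' deposited table.

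Complex II, succinate dehydrogenase, which also serves the citric acid cycle and is encoded wholly in the nucleus, had 0 of 4 subunit genes in the authors' deposited table. Cytochrome c had 0 of 2 genes listed (Cycs and the testis form Cyct). With 9.84% of tested genes listed as lower, 0 in lists this short is not read as sparing. Complex III had 3 of 9 nuclear subunit genes listed, all lower and all small accessory or hinge subunits. Uqcrq stood at an implied mean of 972 in the knockout and 1732 in wild type, a log2 fold change of -0.83 with a deposited standard error of 0.22 and an adjusted p of 8.24e-04 in the authors' deposited table. Uqcr10 stood at 619 in the knockout and 1128 in wild type (-0.87, standard error 0.33) in the authors' deposited table. Uqcrh, the hinge protein near cytochrome c1, stood at 842 in the knockout and 1420 in wild type (-0.75, standard error 0.30) in the authors' deposited table. The 2 nuclear subunits of complex III that carry redox centres, Cyc1 and Uqcrfs1, were not listed.

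Complex IV, cytochrome c oxidase, had 8 of 20 nuclear subunit genes listed, tissue isoforms included, all lower with a median of -0.91 in the authors' deposited table. They made up 40% of that list, while 9.84% of genes estimated as tested were listed as lower. Ndufa4, long counted to complex I and now to complex IV, had the smallest adjusted p of all 37 genes, 3.03e-12 in the authors' deposited table. Its implied mean was 1086 in the knockout and 2089 in wild type, a log2 fold change of -0.94 with a deposited standard error of 0.13, 1.92-fold lower (95% interval 1.62 to 2.29), from the authors' deposited table. It is on the minus strand of chromosome 6 (11900292 to 11907497), and its paralog Ndufa4l2 was not listed. Cox7a2, the widely expressed form of subunit 7a, stood at 564 in the knockout and 1089 in wild type (-0.95, standard error 0.23, adjusted p = 3.93e-04) in the authors' deposited table. Its paralog Cox7a1, the heart and muscle form, stood at 19.5 in the knockout and 64.5 in wild type, and its -1.73 carried the largest standard error of the group, 0.71, and an adjusted p of 0.0493, just inside the limit of the authors' deposited table. Their intervals overlap, from -1.41 to -0.49 for Cox7a2 and from -3.12 to -0.34 for Cox7a1.

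Among the other complex IV genes Cox6a1, the widely expressed form of subunit 6a, had the highest level per transcript length of the nuclear members, 5852 normalized counts per 1000 bases averaged over all samples in the authors' deposited table. Its implied mean was 2528 in the knockout and 4156 in wild type, a log2 fold change of -0.72 (0.22) in the authors' deposited table. The small subunits Cox6c and Cox7c stood at -0.80 (0.22) and -0.88 (0.28), and Cox5a, which lies on the matrix side, at -0.63 (0.22) in the authors' deposited table. Cox6b2, known as the testis form of subunit 6b, stood at 235 in the knockout and 469 in wild type (-0.99, standard error 0.34) in the authors' deposited table, while its paralog Cox6b1 was not listed. The forms Cox4i1, Cox4i2, Cox6a2 and Cox8a were not listed.

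Complex V, the ATP synthase, had 7 of 18 nuclear genes listed, its inhibitor included, all lower with a median of -0.79 in the authors' deposited table. They made up 38.9% of that list, while 9.84% of genes estimated as tested were listed as lower. Differences between the shares of the complexes were not tested. Atp5md, a small membrane subunit, had an implied mean of 591 in the knockout and 1258 in wild type, a log2 fold change of -1.09 with a deposited standard error of 0.20 and an adjusted p of 1.08e-06 in the authors' deposited table. Together with Ndufa4 it was 1 of 2 genes whose whole 95% interval lay beyond the fold limit, 2.13-fold lower with an interval of 1.61 to 2.81 from the authors' deposited table. The c subunit, whose ring turns as protons pass, is made from Atp5g1, Atp5g2 and Atp5g3, which encode the same mature protein, and all 3 were listed. Atp5g1 stood at 951 in the knockout and 1643 in wild type (-0.79, standard error 0.21), Atp5g2 at 170 in the knockout and 325 in wild type (-0.94, 0.26) and Atp5g3 at 1592 in the knockout and 2856 in wild type (-0.84, 0.27) in the authors' deposited table. Summed over these c ring genes the implied means came to 2713 normalized counts in the knockout and 4824 in wild type, worked out from the authors' deposited table. Atp5d, the delta subunit of the central stalk, stood at -0.73 (0.29) and Atp5l, subunit g, at -0.62 (0.25) in the authors' deposited table. Atpif1, which blocks ATP hydrolysis by the synthase, was lower too, at 930 in the knockout and 1414 in wild type (-0.60, standard error 0.16, adjusted p = 0.0014) in the authors' deposited table. Among the catalytic and stalk genes, Atp5d was listed, while Atp5a1, Atp5b and Atp5c1 were not.

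**Figure D2:**
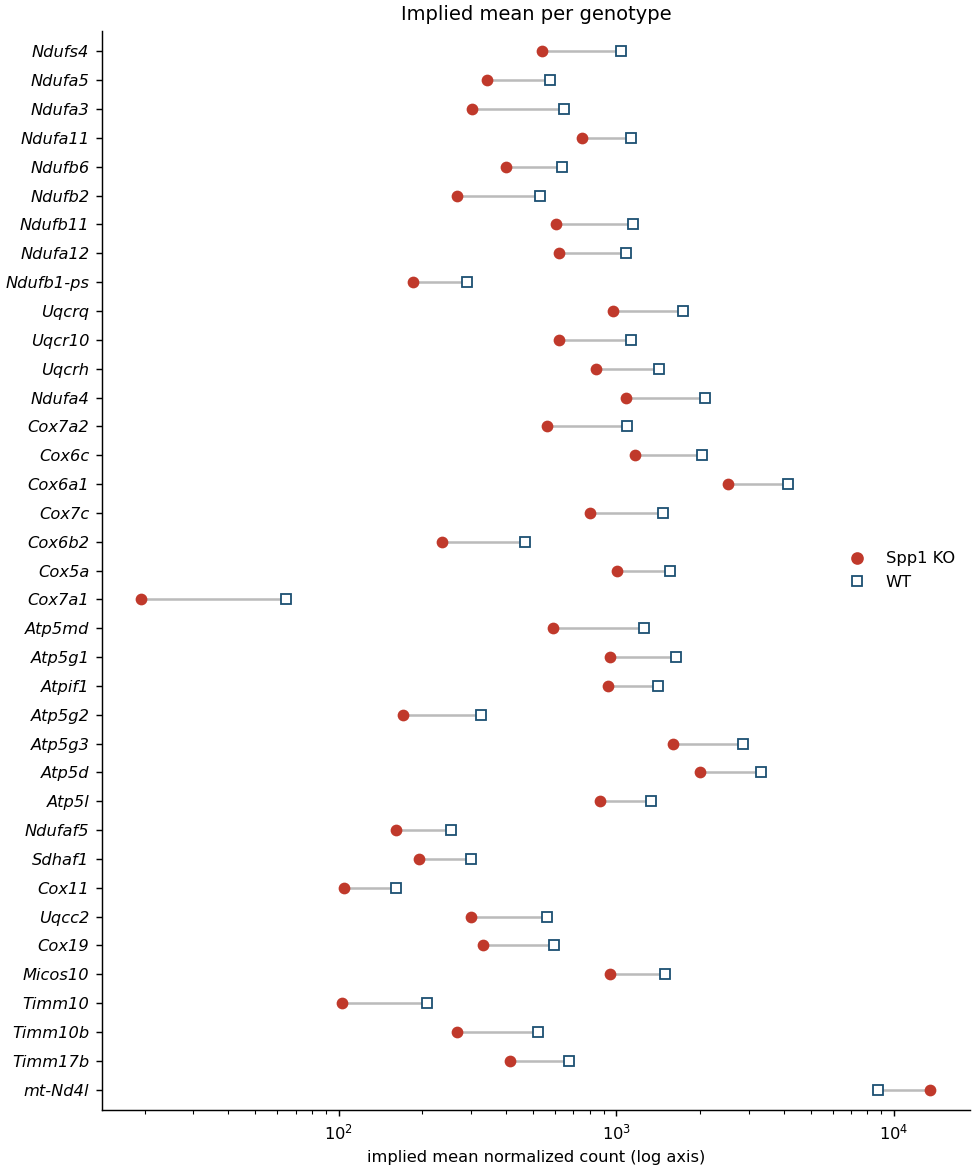
Implied mean normalized count on a log axis (horizontal) for each of the 37 genes, with filled circles for Spp1 KO and open squares for WT. The knockout point lies left of the wild-type point for every nuclear gene, from Cox7a1 at 19.5 against 64.5 to Cox6a1 at 2528 against 4156, and right of it for mt-Nd4l.

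Of genes estimated as tested, 9.84% were listed as lower. Of the nuclear subunits on the curated lists 26 of 87 (29.9%) were listed, all lower. Of the assembly factors on these lists 7 of 53 (13.2%) were listed, all lower, and the difference between these shares was not tested. Of the 5 that the name rule takes, Ndufaf5, which acts on complex I, stood at 160 in the knockout and 254 in wild type, a log2 fold change of -0.66 with a deposited standard error of 0.19 and an adjusted p of 0.0034 in the authors' deposited table. Sdhaf1, which helps to insert iron-sulfur clusters into complex II, stood at -0.62 (0.20), and Uqcc2, a factor of complex III, at -0.91 (0.32) in the authors' deposited table. Cox11 and Cox19, which serve copper delivery to complex IV, stood at -0.62 (0.21) and -0.85 (0.35) in the authors' deposited table. The name rule misses Ecsit, of complex I assembly, and Cmc2, of complex IV assembly, at -0.59 (0.18) and -0.83 (0.21) in the authors' deposited table. The assembly factor Surf1 and all Coa genes were not listed.

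Of 51 curated genes of import and cristae organisation 5 were listed, all lower (9.80%), a share near the 9.84% of tested genes listed as lower. Of 22 genes for the TIM23 and TIM22 translocases, their motor and the small TIM chaperones, 3 were listed as lower, and of 13 genes for TOM and the outer-membrane sorting complex 0 were listed, a difference that was not tested. Timm10, a small chaperone that escorts hydrophobic proteins across the intermembrane space, stood at 103 in the knockout and 208 in wild type, a log2 fold change of -1.01 with a deposited standard error of 0.27 and an adjusted p of 0.0013 in the authors' deposited table. Its relative Timm10b, part of the TIM22 complex, stood at 266 in the knockout and 522 in wild type (-0.97, standard error 0.32) in the authors' deposited table. The X-linked Timm17b, a core subunit of TIM23, stood at 414 in the knockout and 674 in wild type (-0.70, standard error 0.27) in the authors' deposited table, and its paralog Timm17a was not listed. Micos10, a subunit of the MICOS complex that shapes cristae junctions, stood at 945 in the knockout and 1500 in wild type (-0.67, standard error 0.15, adjusted p = 5.1e-05) in the authors' deposited table. Apoo, another MICOS gene outside the name rule, stood at -0.81 (0.22) in the authors' deposited table. No Chchd gene was listed.

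**Figure D3:**
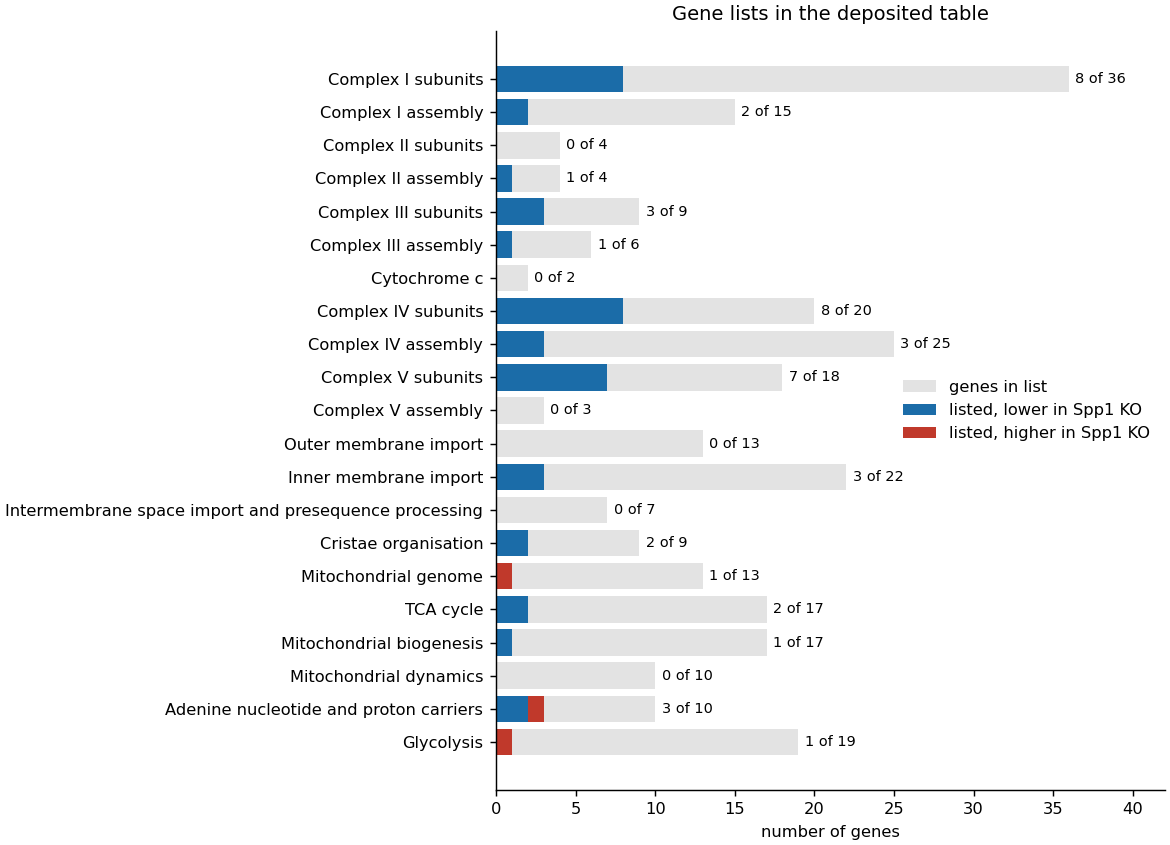
Number of genes (horizontal axis) in each curated list in grey, with the listed genes lower in Spp1 KO in blue and those higher in red; labels give listed genes of genes in the list. Complexes IV and V have 8 of 20 and 7 of 18 genes listed, complex II and outer membrane import have 0 of 4 and 0 of 13. Of genes estimated as tested, 9.84% were listed as lower, so 0 in lists this short is not read as sparing.

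The mitochondrial genome encodes 13 proteins of complexes I, III, IV and V, and mt-Nd4l, a membrane subunit of complex I, was the only one listed. Its implied mean was 13477 in the knockout and 8741 in wild type, a log2 fold change of 0.62 with a deposited standard error of 0.17 (95% interval 0.29 to 0.96) and an adjusted p of 0.0018 in the authors' deposited table. The gene spans 9877 to 10173 of the mitochondrial chromosome and shares 7 exonic bases with mt-Nd4, which was not listed. The remaining 12 protein genes, the ribosomal RNAs and the transfer RNAs were not listed, so the authors' deposited table gives no direction for the mitochondrial genome as a whole. With 1 of 13 protein genes listed, the share was 7.69%, below the 12% of genes estimated as tested that were listed as higher.

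Listed subunits shared a short coding sequence, which the name rule did not use. Among the 87 nuclear subunit genes of complexes I to V on the curated lists, the 26 listed ones had a median coding length of 316.5 bases (174 to 525), and the 61 others of 477 bases (156 to 2181). In 3 ranges of coding length that hold about equal numbers, 12 of 29 genes with up to 312 bases were listed, 13 of 30 with 315 to 507 bases, and 1 of 28 longer genes, Ndufs4. Outside the named families, the share of annotated protein-coding genes listed as lower was alike over these ranges, 6.99%, 6.83% and 6.86%. Among the listed genes of those ranges, the lower ones made up 66.3%, 61.4% and 44.4%. The part that transcript length plays in the falls was not tested.

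**Figure D4:**
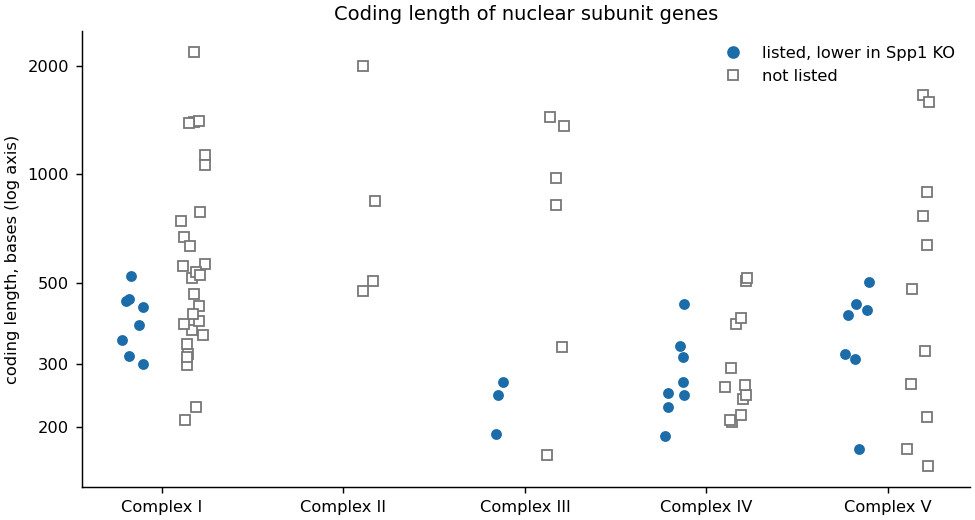
Coding length in bases on a log axis (vertical) of the nuclear subunit genes of each complex, with filled circles for genes listed as lower in Spp1 KO and open squares for genes not listed. No listed gene exceeds 525 bases, while unlisted genes reach 2181 bases.

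The falls were measured with less precision than those of other genes of like abundance. The 18 nuclear members with mean counts between the members' quartiles (398 to 1185) had a median standard error of 0.27. It was 0.19 for 404 other genes listed as lower in that range of the authors' deposited table. Of the 36 nuclear members 18 had an adjusted p of at most 0.01 in the authors' deposited table. Members lay on 14 nuclear chromosomes, with at most 5 on any of them. Of the 37 genes, 2 lie on chromosome 5, which carries Spp1, at 10.9 Mb (Cox6a1) and 34.9 Mb (Cox19) from it.

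**Figure D5:**
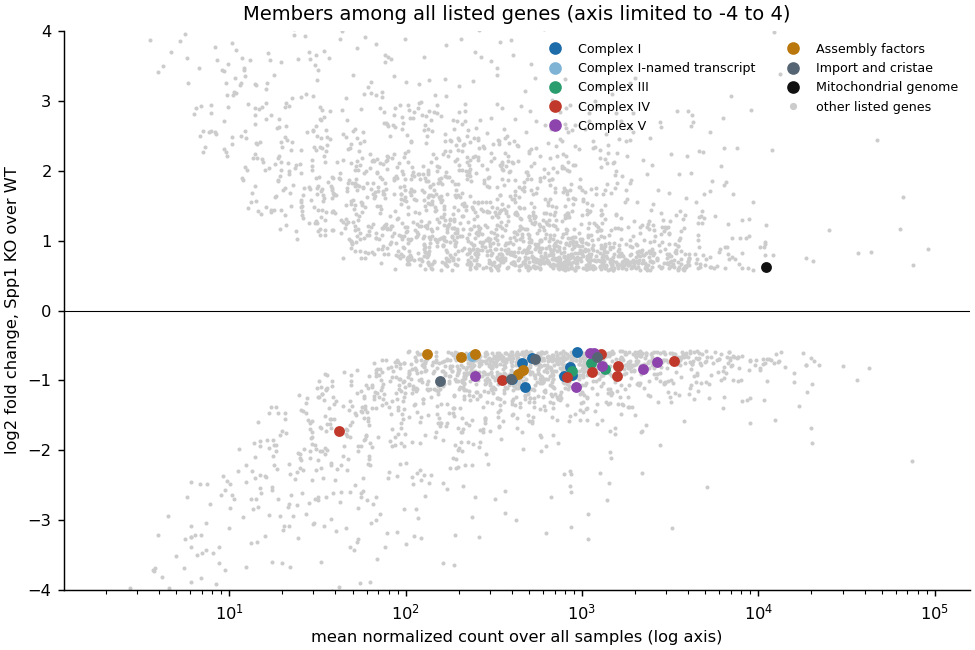
Log2 fold change (vertical axis, Spp1 KO over WT) against mean normalized count over all samples (horizontal log axis) for the 37 genes in colour and the other listed genes in grey; 170 of the other genes lie beyond the vertical limits. The nuclear members form a band near -0.82 at a median mean count of 839, and the empty strip around 0 is the fold limit of the table.

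Markers of other cell types differed beside these genes. For comparison, 12% of genes estimated as tested were listed as higher, 9.84% as lower and 21.8% in either direction. Of 14 macrophage and microglia markers 13 were listed, all higher, with a median log2 fold change of 2.30, and of 10 meningeal fibroblast markers 8 were listed, all higher, with a median of 1.96 in the authors' deposited table. Markers of the oligodendrocyte lineage were lower in 10 and higher in 1 of 12, those of Schwann cells lower in 7 of 9 and those of neurons lower in 8 of 12 in the authors' deposited table. The lists share genes, so their counts are not separate. Pdgfra, the higher oligodendrocyte marker at 0.85, is also counted as a fibroblast marker. Sox10, at -5.00, is counted for both the oligodendrocyte lineage and Schwann cells. Proliferation genes were lower in 9 of 10, with a median of -1.08 in the authors' deposited table. Fewer cells of a type and less RNA per cell cannot be told apart in these bulk samples, and the part of cell composition and of proliferation in the falls of the respiratory genes was not tested. The marker lists, like the gene names, were chosen with earlier results known.

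Overlapping genes limit some values, since the sources used here do not say whether counting used strand. Exons of 18 of the 37 genes overlap those of another annotated gene, and for Sdhaf1 (69.6% of its exonic bases, with E130208F15Rik), Cox11 (48.3%, with Tom1l1), Ndufb6 (39.0%, with Smim27) and Atpif1 (33.7%, with Gm12999) the overlap with a gene on the opposite strand exceeds 33% of the exonic bases. Only 1 overlapping partner was itself listed, Vps13b, which shares 7.01% of the exonic bases of Cox6c and was higher, with a log2 fold change of 0.67 in the authors' deposited table. Short respiratory genes also have processed pseudogenes, and the sources used here do not give how reads shared with such copies were counted.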

How the data were processed

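RNA was sequenced from 4 Spp1 KO and 4 WT astrocyte samples. DESeq2 1.30.1, STAR 2.7, CASAVA 1.8 and the build GRCm38 appear in the submitters' processing notes, without the step each served. Per the file headers, the authors deposited 6 values a gene: the normalized count averaged over the samples (a signal that is never negative), the log2 fold change and its standard error, the Wald statistic (a score), and the raw and adjusted p-value. The table holds 3624 genes, 0 columns of per-sample values, adjusted p up to 0.0499 and absolute log2 fold changes from 0.58. Depth per sample is unknown, and precision rests on the deposited standard errors. With no counts, the planned count model was not run, and the deposited tests were counted as they stand.

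Members, lists and alternatives were chosen with earlier results of these data known. All 37 members are named. The rule set for full values took the 4 members of each group with the smallest adjusted p, every higher member and listed paralogs, and the values of the other members were added after they were seen. Members were matched to GENCODE M21, 2 of them (Micos10 and Atp5md) under older symbols. Intervals at 95% are normal intervals around each fold change from its deposited standard error. Python 3.11.15, pandas 2.3.3, NumPy 2.4.6, SciPy 1.17.1 and matplotlib 3.10.9 were used. The estimate of genes tested took the 20 smallest p-values above 0 and was tested on simulated data. Some genes are not reported here.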

Additional observations from a re-analysis of the deposited data

How the results depend on the processing

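No paired analysis was possible because the deposited table has no column of a single sample, and leaving out each replicate could not be run for the same reason. With the fold limit raised to 1 on the log2 scale, 4 members were lower and 0 higher, with a median of -1.09, and 3 subunits, 0 assembly factors, 1 import gene and 0 mitochondrial genes were left. At an adjusted p of at most 0.01, 18 members were lower, with 14 subunits, 2 assembly factors and 2 import genes. With the 95% interval wholly beyond the fold limit, 2 were lower and 0 higher. Without members overlapping another gene, an alternative chosen after seeing the data, 19 were lower and 0 higher. The counts fell because these alternatives leave fewer genes. A mean count of at least 100, the curated lists, leaving out the non-coding transcript and leaving out chromosomes 5 and X (also chosen after seeing the data) gave between 32 and 38 lower genes and 1 higher gene. The deposited table has no rows below the fold limit of 0.58, so nothing can be said about genes there.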

Other observations

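Of genes estimated as tested, 9.84% were listed as lower and 12% as higher. Of 17 citric acid cycle and pyruvate dehydrogenase genes 2 were listed (11.8%), both lower, a share near that of tested genes. In the authors' deposited table Idh3a, the catalytic subunit of NAD-dependent isocitrate dehydrogenase, stood at 1668 in the knockout and 2878 in wild type. Its log2 fold change was -0.79 (deposited standard error 0.12). Mdh2, mitochondrial malate dehydrogenase, stood at -0.69 (0.15) in the authors' deposited table. Among 17 genes of mitochondrial biogenesis 1 was listed (5.88%), below the 9.84% of tested genes listed as lower. This was Ppargc1a, a coactivator of respiratory gene transcription, at 531 in the knockout and 844 in wild type. Its log2 fold change was -0.67 (standard error 0.22, adjusted p = 0.0092) in the authors' deposited table. Of 10 genes for adenine nucleotide and proton carriers and outer-membrane channels 3 were listed (30%), 2 lower and 1 higher. Among genes estimated as tested 21.8% were listed in either direction. The phosphate carrier gene Slc25a3 and the outer-membrane channel gene Vdac1 were lower, at -0.68 (0.15) and -0.59 (0.12), in the authors' deposited table.

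Ucp2, an uncoupling protein abundant in macrophages, was higher, at 4086 in the knockout and 1663 in wild type (1.30, standard error 0.24), in the authors' deposited table. Of 19 glycolysis genes 1 was listed, Aldoc, the aldolase typical of astrocytes, at 5230 in the knockout and 2302 in wild type (1.18, standard error 0.21) in the authors' deposited table. Genes of mitochondrial fusion and fission had 0 of 10 members listed. The glycolysis share was 5.26%, and of genes estimated as tested 21.8% were listed in either direction. Of 78 annotated mitochondrial ribosomal protein genes (Mrpl and Mrps) 13 were listed, all lower (16.7%). Listed as lower were 7.26% of all annotated protein-coding genes and 9.84% of genes estimated as tested. The median of the 13 was -0.77 on the log2 scale in the authors' deposited table.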
